A study of Mus musculus with 7 samples.

Results

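The citric acid cycle genes described here are Cs, Idh2, Idh3a, Idh3b, Ogdh, Sucla2, Suclg1, Fh1 and Mdh2, which encode mitochondrial enzymes of the cycle or their subunits. Their members among the data are all consensus regions of open chromatin that overlap the body of 1 of these 9 genes or the 10 kb on either side of it (GENCODE M21 annotation, mouse genome build GRCm38). The rule found 39 of 55680 regions. The 38 described here are 1 promoter region for each gene, at a transcription start site (TSS ± 200 bp), and 29 regions elsewhere. ATAC-seq measured accessibility in liver tissue of C57BL/6N mice as the number of reads from DNA that a transposase could reach. The groups were young mice of 3 months (3 samples) and aged mice of 18 months (4 samples), with age as the only stated difference between them. The 4 aged samples came from 3 animals, since 2 lobules of 1 liver were used as separate samples and the labels do not say which. Their spread, and the p-values that rest on it, therefore hold fewer independent animals than samples.

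The citric acid cycle oxidises acetyl-CoA in the mitochondrial matrix and passes the electrons on to the respiratory chain. Citrate synthase (Cs) opens the cycle by joining acetyl-CoA to oxaloacetate, isocitrate dehydrogenases (Idh2 with NADP, the Idh3a and Idh3b subunits with NAD) and the oxoglutarate dehydrogenase subunit Ogdh carry out its oxidative decarboxylations, succinyl-CoA ligase (Suclg1 with Sucla2) forms a nucleotide triphosphate, and fumarase (Fh1) and malate dehydrogenase (Mdh2) lead back to oxaloacetate. In liver the cycle also feeds gluconeogenesis and the export of citrate for lipid synthesis.

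The totals over all regions were 5709327 to 25461110 reads in young and 4474652 to 11717992 in aged samples, and the promoter regions of the 9 genes held between 53 and 2034 reads per sample. No pair of libraries of the same age was a duplicate. Promoter regions of hepatocyte genes summed to 384.6 to 460.0 CPM (reads scaled to the size of each library) in young and 505.0 to 596.2 CPM in aged samples, with all 5 of 5 listed genes (Alb, Apoa1, Ttr, Cps1, Hnf4a) having a promoter region. Apoa1 was the largest part of this sum (means of 186.9 CPM in young and 270.7 in aged samples) and the 1 gene of the 5 that was called. Of 4 stellate cell genes, Lrat and Reln had a promoter region, and these summed to 20.9 to 24.0 CPM in young and 11.9 to 19.0 CPM in aged samples. Most of that sum was Reln (means of 18.7 and 11.7 CPM), and 0 of these genes were called. The Kupffer cell list (1 of 4 genes with a promoter region, Clec4f; 2.22 to 2.65 CPM in young, 0.588 to 2.80 in aged), the endothelial list (3 of 4; 54.3 to 57.9 against 45.5 to 74.3) and the cholangiocyte list (2 of 4; 41.7 to 49.5 against 36.7 to 54.3) overlapped between the ages. None of 4 lymphocyte genes had a promoter region. The part of these marker differences in the results below was not tested, and in whole tissue a change in the number of cells cannot be told apart from a change in accessibility per cell.

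Among the 9 promoter regions, that of Cs became more accessible with age and none was called less accessible. Accessibility was higher in all 4 aged samples than in every young one at Cs, Fh1 and Mdh2, and lower in all 4 at Idh3b. The sequences before the starts of Cs, Fh1, Ogdh and Idh3b are shown because these starts span the range from the clearest gain to the only separated loss. They come from RefSeq (GRCm38.p6) and read 5′ to 3′ on the strand of the gene. Capitals mark CCAAT, the core bound by NF-Y, GGGCGG, the core bound by SP factors, and TGACGTCA, the CREB element, each on either strand. The Cs stretch is chr10:128337587-128337726 on the plus strand, the Fh1 stretch chr1:175625636-175625775 on the minus strand and the Ogdh stretch chr11:6291457-6291596 on the plus strand, each the 140 bases before a RefSeq start. Ogdh has 6 RefSeq starts, and the first along the gene is used. The Idh3b stretch, chr2:130284548-130284687 on the minus strand, runs from 236 to 97 bases before its start.
Cs: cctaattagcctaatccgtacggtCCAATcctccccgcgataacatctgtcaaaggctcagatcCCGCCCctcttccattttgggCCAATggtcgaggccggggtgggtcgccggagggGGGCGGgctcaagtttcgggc
Fh1: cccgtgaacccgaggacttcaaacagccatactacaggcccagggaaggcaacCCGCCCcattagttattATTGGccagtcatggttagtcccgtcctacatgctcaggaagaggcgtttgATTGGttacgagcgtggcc
Ogdh: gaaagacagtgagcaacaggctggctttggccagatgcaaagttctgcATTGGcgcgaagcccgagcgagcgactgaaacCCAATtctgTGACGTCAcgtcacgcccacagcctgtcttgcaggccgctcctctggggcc
Idh3b: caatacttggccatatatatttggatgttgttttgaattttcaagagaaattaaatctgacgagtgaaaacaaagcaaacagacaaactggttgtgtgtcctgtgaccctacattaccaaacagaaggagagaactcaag

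The G and C content was 61.4% in the Cs stretch, 55.0% in that of Fh1, 60.0% in that of Ogdh and 36.4% in that of Idh3b, which unlike the others stops short of the start. Over the whole promoter regions it was 55.0% at Idh3b, 54.6% at Fh1 and 60.0% at Ogdh, and lower at Cs than at these, so the low value of Idh3b holds for the stretch shown and not for its region. Over the window from 250 bases before to 50 after the RefSeq start, which 8 of the 9 genes matched with 1 window each except Ogdh with 6, CCAAT occurred at Cs, Fh1, Idh2, Idh3b and Ogdh and in 37.4% of all 32817 promoter windows. GGGCGG occurred at 6 genes (Cs, Fh1, Idh2, Mdh2, Ogdh and Sucla2) and in 35.6% of all windows, and TGACGTCA at Mdh2 and Ogdh and in 1.79% of all. Of the 6 Ogdh windows, 6 held CCAAT, 4 held GGGCGG and 3 held TGACGTCA, and a gene with several windows has more chances of a match than a single window. The Idh3b window held a single CCAAT match, 76 bases before the start and on the other strand, outside the stretch shown. The ERR motif TCAAGGTCA (0.424% of all windows), the ETS motif CCGGAAGT (3.89%), the NRF1 motif (0.966%) and the YY1 motif (0.631%) had no match in any window of the 8 genes on either strand. These matches are a description of letters, not of binding.

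At Cs, citrate synthase, the promoter region (chr10:128335743-128338640, around its start) held 78.6, 76.9 and 68.1 CPM in young and 112.5, 105.5, 107.9 and 104.0 CPM in aged replicates. Every aged sample lay above every young one, and the aged replicates were close together. The young mean was 74.5 ± 5.64 CPM (SD, n = 3) and the aged mean 107.5 ± 3.74 CPM (SD, n = 4). The region rose by 0.53 ± 0.11 (SE) on the log2 scale, with an adjusted p of 0.0161 in edgeR's quasi-likelihood test with Benjamini-Hochberg adjustment over all regions. The call was lost when young replicate 1 (edgeR adjusted p = 0.0636), young replicate 2 (0.0640), aged replicate 1 (0.0612) or aged replicate 3 (0.0556) was left out, while the log2 fold change stayed at 0.50 to 0.57. It was also lost with offsets that remove the trend of each library with region strength, which lowered the log2 fold change to 0.22 (edgeR adjusted p = 0.273). Most calls were lost over all regions in these settings. The 1360 regions called more accessible became 55, 196, 129 and 176 without those samples, in that order, and 247 with the offsets.

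The promoter regions of Fh1, Mdh2 and Ogdh had higher means in aged mice but did not pass the test. At Fh1, fumarase (chr1:175624725-175626233, within the overlapping gene Kmo), young replicates held 62.2, 67.4 and 66.6 CPM and aged replicates 79.0, 84.5, 82.9 and 81.8 CPM. The groups did not overlap, and the log2 fold change of 0.33 ± 0.10 (SE) had an edgeR adjusted p of 0.0697. It passed the threshold with DESeq2 (adjusted p = 0.0277), with limma voom (0.0482) and with offsets for G and C content (edgeR adjusted p = 0.0208). It fell to 0.21 with total counts (edgeR adjusted p = 0.203) and to 0.047 with strength offsets (0.864).

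At Mdh2, malate dehydrogenase of the mitochondrion (chr5:135777923-135779255, a region shared with the start of Styxl1), young replicates held 67.6, 63.9 and 48.7 CPM and aged replicates 76.4, 75.1, 82.6 and 74.8 CPM. The groups did not overlap, and young replicate 3 was well below the other 2 young samples. The log2 fold change was 0.35 ± 0.12 (SE, edgeR adjusted p = 0.0972), and 0.24 without young replicate 3. At Ogdh, the subunit of the oxoglutarate dehydrogenase complex that decarboxylates its substrate (chr11:6291212-6292605), young replicates held 75.1, 74.6 and 53.8 CPM and aged replicates 88.8, 73.5, 87.1 and 103.2 CPM. Aged replicate 2 fell within the young range, and the log2 fold change of 0.37 ± 0.14 (SE) had an edgeR adjusted p of 0.124. Without young replicate 3, which was again the lowest, it was 0.25. With strength offsets Mdh2 was at 0.091 and Ogdh at 0.087.

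Idh2, Idh3a, Suclg1 and Sucla2 overlapped between the ages. The Idh2 promoter region (chr7:80114057-80116334), at the start of the NADP-dependent isocitrate dehydrogenase gene, held 52.5, 51.1 and 55.4 CPM in young and 50.5, 58.8, 57.0 and 71.9 CPM in aged replicates, so that aged replicate 4 was the highest sample and aged replicate 1 the lowest. Its log2 fold change was 0.17 ± 0.13 (SE, edgeR adjusted p = 0.432), 0.068 without aged replicate 4 and -0.071 with offsets for region strength. The Idh3a region (chr9:54586030-54587365), for the catalytic subunit of the NAD-dependent enzyme, ranged from 28.6 to 39.3 CPM in young and from 30.2 to 42.7 CPM in aged samples. Its log2 fold change of 0.095 ± 0.14 (SE, edgeR adjusted p = 0.724) fell below 0 with total counts (-0.023) and with strength offsets (-0.069). The Suclg1 region (chr6:73247717-73249458), for the alpha subunit that pairs with Sucla2, ranged from 33.8 to 40.1 CPM in young and from 33.1 to 39.9 CPM in aged samples. Its log2 fold change was -0.020 ± 0.12 (SE, edgeR adjusted p = 0.939), and its sign changed with the setting. The region at the basic starts of Sucla2 (chr14:73552339-73553584), the ADP-forming beta subunit of the same ligase, held 32.2, 35.5 and 33.1 CPM in young and 30.4, 29.8, 35.5 and 28.1 CPM in aged replicates. Aged replicate 3 was as high as the highest young sample, and the log2 fold change was -0.13 ± 0.12 (SE, edgeR adjusted p = 0.566), or 0.011 after thinning to equal totals.

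Idh3b, a regulatory partner of Idh3a in the same enzyme, had the weakest promoter region (chr2:130283642-130284761) and the lowest fold change. It held 15.9, 15.2 and 16.4 CPM in young and 12.7, 12.7, 12.4 and 8.78 CPM in aged replicates. All 4 aged samples lay below every young one, and aged replicate 4 lay well below the other 3. The log2 fold change was -0.44 ± 0.18 (SE, edgeR adjusted p = 0.143) and stayed below 0 under every setting tried, from -0.56 to -0.31.

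Of the 9 promoter regions, 1 was called more accessible, where 4.48% of all 15422 promoter regions were, and 0 were called less accessible, where 2.06% of all were. With DESeq2 and with limma voom 2 were called more accessible (Cs and Fh1) and 0 less, where DESeq2 called 1544 and limma voom 1213 of all 15422 promoter regions more accessible. At an unadjusted edgeR p under 0.05 there were 4 that were higher (3541 of all 15422 promoter regions, and 54.8% of those in the strongest of 10 classes described below) and 1 that was lower (9.13% of all). Every aged sample lay above every young one at 3 of the 9 regions (20.4% of all promoter regions) and below at 1 (8.88% of all). The 3 were in the strongest class, where 2121 of 4527 lay above. The 1, Idh3b, was in class 7 of the 10, where 199 of 1441 lay below. In the strongest class, which holds Cs, 11.2% were called more accessible. The 9 had a median log2 fold change of 0.17, against 0.094 for promoter regions in general. Without aged replicate 4 these were 0.10 and 0.097, and the median of the 9 ranged from 0.10 to 0.25 when 1 sample was left out.

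**Figure D1:**
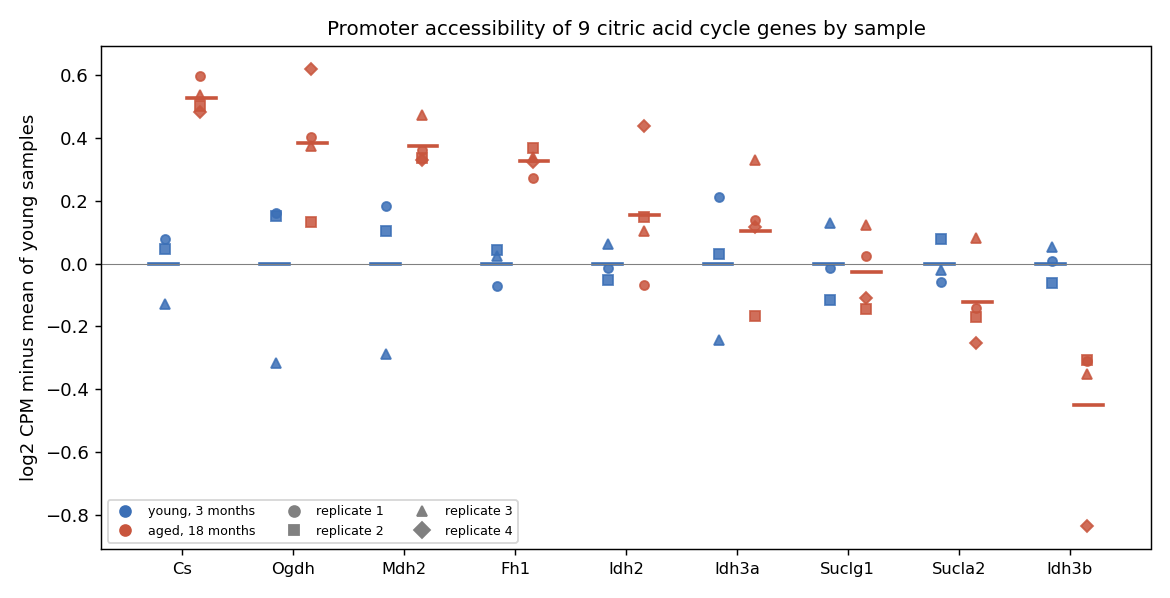
The 9 promoter regions are ordered by age difference along the horizontal axis. The vertical axis is log2 CPM minus the mean of the young samples, each point is 1 sample (blue young, red aged, shape by replicate number) and horizontal bars are group means, and the aged points of Cs, Mdh2 and Fh1 all lie above the young points while those of Idh3b all lie below.

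All but Idh3b lay among the stronger of all regions, where promoter regions in general tended to be more accessible in aged samples. When all regions were divided into 10 classes of equal size by mean log2 CPM, Cs, Idh2, Ogdh, Fh1 and Mdh2 fell in class 10, the strongest, Sucla2, Idh3a and Suclg1 in class 9, and Idh3b in class 7. Among promoter regions alone, Sucla2, Idh3a and Suclg1 were nearer the middle, at percentiles 56.4, 60.2 and 61.1, and Idh3b was at 29.0. Promoter regions in general had a median log2 fold change of 0.28 in class 10, 0.15 in class 9 and -0.074 in class 7. Cs (0.53), Ogdh (0.37), Mdh2 (0.35) and Fh1 (0.33) lay above the median of their class and Idh2 (0.17), Idh3a (0.095), Suclg1 (-0.020), Sucla2 (-0.13) and Idh3b (-0.44) below it. For Ogdh, Mdh2, Fh1, Idh2 and Idh3a the distance from that median was less than 1 standard error of the fold change. With the strength offsets the median of the 9 promoter regions was -0.069. The cause of the trend with strength was not tested.

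**Figure D2:**
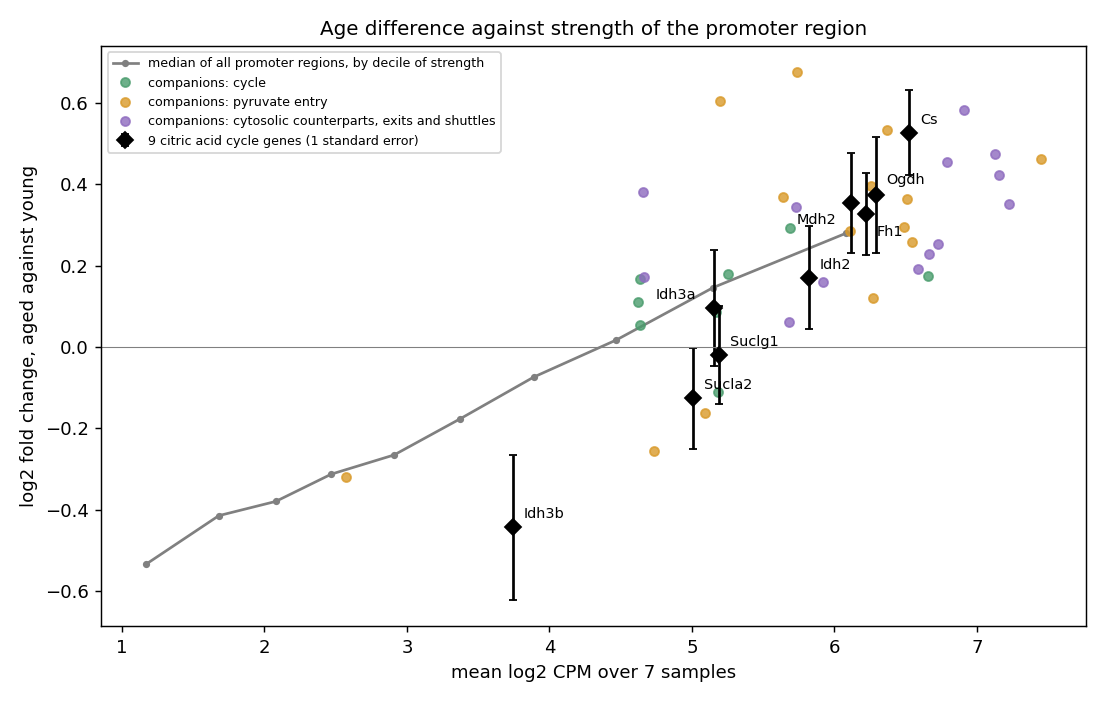
Each black diamond is 1 promoter region of the 9 genes, with mean log2 CPM over 7 samples on the horizontal axis and log2 fold change of aged against young on the vertical axis (bars are 1 standard error); circles are the promoter regions of 35 companion genes of the pathway. The grey line joins the medians of all promoter regions in 10 classes of strength and rises from left to right to 0.28, with Cs at 0.53 above it and Idh3b at -0.44 below it.

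Compared per length, the order of promoter accessibility among the genes had a top group of 3. In young mice Ogdh (48.6 ± 8.72 CPM per kb, SD, n = 3), Mdh2 (45.1 ± 7.53) and Fh1 (43.4 ± 1.86) did not differ from each other beyond their spread. Sucla2 (26.9 ± 1.35), Cs (25.7 ± 1.95), Idh3a (25.6 ± 4.03), Idh2 (23.3 ± 0.959) and Suclg1 (21.1 ± 1.82) followed in a series whose neighbours overlapped. Idh3b was last at 14.1 ± 0.578 CPM per kb and was apart from its neighbour. In aged samples (n = 4, from 3 animals) the same 3 genes led, with Ogdh at 63.3 ± 8.71, Mdh2 at 58.0 ± 2.74 and Fh1 at 54.4 ± 1.55 CPM per kb. Cs (37.1 ± 1.29) then lay above Idh3a (27.5 ± 3.84), Idh2 (26.1 ± 3.94), Sucla2 (24.8 ± 2.54) and Suclg1 (20.7 ± 1.80), and Idh3b was again last at 10.4 ± 1.72. The Cs region is 2898 bp wide, so its rank per length is lower than its rank in CPM.

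Ratios between the promoters within each library cancel the scaling of the library, but not the trend with region strength. Among the 36 pairs of the 9 genes the log2 ratio did not overlap between the ages in 15 (41.7%), against 24.8% of all pairs of promoter regions. All 15 joined genes of different classes of strength, and the ratio overlapped in every pair within a class. The part of the trend with strength in the 15 was not tested. Pairs that share a gene are not independent. Idh3b was in 6 of the 15, with Cs, Idh2, Ogdh, Suclg1, Fh1 and Mdh2. The log2 ratio of Cs to Idh3b was 2.29, 2.33 and 2.04 in young and 3.12, 3.03, 3.10 and 3.54 in aged replicates, a difference of 0.98. Cs was also higher relative to Suclg1 (by 0.56), Idh3a (by 0.42) and Sucla2 (by 0.65) in all 4 aged samples. These pairs are a description, with no p.

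Outside the promoters of the 9 genes, 1 of the 29 regions was called more accessible and 2 less accessible. Of all 40258 regions outside promoters, 1.66% and 3.78% were. DESeq2 and limma voom each gave the same counts. Over all 55680 regions, DESeq2 called 2760 more and 1931 less accessible, and limma voom 2197 and 2383. The 29 include 3 regions at the starts of neighbouring genes, all 3 above 0, and the 40258 hold no promoter region. The median log2 fold change of the 29 was -0.16, and that of the 40258 was -0.091. Of the 29, 19 lay below 0, as did 23750 of all 40258. The median of the 29 was -0.031 with strength offsets, -0.074 with offsets for G and C content, -0.084 after thinning and -0.28 with total counts. The 12 intronic regions had a median of -0.22 and the 7 regions in the downstream flanks a median of -0.29, all 7 below 0, as were the 3 in the upstream flanks. These regions were poorer in G and C than the promoter regions (median 46.2% against 57.4%) and in CpG (observed over expected 0.211 against 0.696), and weaker, since 13 of the 29 lay in the lower classes of strength, 1 to 5.

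The region that rose lies in an intron of Cs (chr10:128343153-128344061). It held 10.4, 9.60 and 9.87 CPM in young and 15.7, 20.0, 16.6 and 15.2 CPM in aged replicates, with no overlap. Its log2 fold change was 0.76 ± 0.17 (SE, edgeR adjusted p = 0.0243). Cs was thus the gene with both its promoter region and a further region called in the same direction. The ratio of this intron to the Cs promoter was not separated between the ages (difference in log2 ratio 0.21, exact two-sided permutation p = 0.171). This ratio and those of the called Suclg1 and Idh2 regions to their promoters, 3 in all, were chosen after their values were seen. Of the other Cs regions, a neighbouring intronic one had a log2 fold change of 0.35 (edgeR adjusted p = 0.317) and one over an exon near the end of the gene -0.62 (0.241).

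A region within an intron of Suclg1 (chr6:73252478-73254558) became less accessible while the Suclg1 promoter did not pass the test. It held 27.8, 26.9 and 23.5 CPM in young and 12.3, 21.2, 17.0 and 13.4 CPM in aged replicates. All aged samples lay below the young ones, with aged replicate 2 the nearest to them. The log2 fold change was -0.74 ± 0.18 (SE, edgeR adjusted p = 0.0338). Relative to the promoter of the same gene the intron was lower by 0.70 on the log2 scale, with 3 of 4 aged samples below all young ones (exact permutation p = 0.114, and 0.171 adjusted over the 3 ratios).

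The other loss lay in the downstream flank of Idh2 (chr7:80084436-80084893), inside the neighbouring gene Zfp710, which encodes a zinc finger protein. It held 5.18, 5.71 and 6.41 CPM in young and 1.93, 2.55, 2.57 and 3.06 CPM in aged replicates, from 11 to 151 reads per sample. The groups did not overlap, and the log2 fold change was -1.20 ± 0.27 (SE, edgeR adjusted p = 0.0229). Relative to the Idh2 promoter the log2 ratio was -3.29, -3.12 and -3.07 in young and -4.57, -4.43, -4.37 and -4.47 in aged replicates, lower in all 4 by 1.30 (exact permutation p = 0.0571, the smallest possible here, since the one-sided p over 35 splits was doubled; adjusted 0.171). It overlaps Zfp710, and no measurement here links it to Idh2.

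The 3 called regions outside promoters lost their calls when young replicate 1, young replicate 2, aged replicate 1 or aged replicate 3 was left out, at which 0 of the 29 passed in either direction. Their log2 fold changes then stayed at 0.73 to 0.79 for the Cs intron, -1.26 to -1.05 for the Idh2 flank and -0.77 to -0.62 for the Suclg1 intron. Over all regions the 1360 gains became 55, 196, 129 and 176 in these fits, in that order. The 1838 losses became 133, 250, 273 and 475, and 416 with strength offsets. With strength offsets the Idh2 flank (-0.92, edgeR adjusted p = 0.105) and the Suclg1 intron (-0.79, 0.0545) lost their calls and the Cs intron (0.77, 0.0430) did not. Among the regions that did not pass, the lowest was an Ogdh intron (chr11:6323998-6324368) with 1 to 74 reads per sample, a log2 fold change of -1.45 ± 0.46 (SE) and an edgeR adjusted p of 0.0759. Another Ogdh intron had the highest value of its regions outside the promoter, 0.045 (edgeR adjusted p = 0.885). Around Idh2 a further downstream region had -0.22 and an upstream one -0.24, and around Idh3a an upstream region had -0.24 and a downstream one -0.44 (edgeR adjusted p = 0.429). A Sucla2 intron had -0.36, and the other Suclg1 regions -0.048 in an intron and -0.068 downstream. At Fh1 the range ran from -0.47 in an intron to 0.17 over an exon, leaving out the start of Kmo in its flank, and at Mdh2 from -0.35 downstream to 0.097 over an exon.

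**Figure D3:**
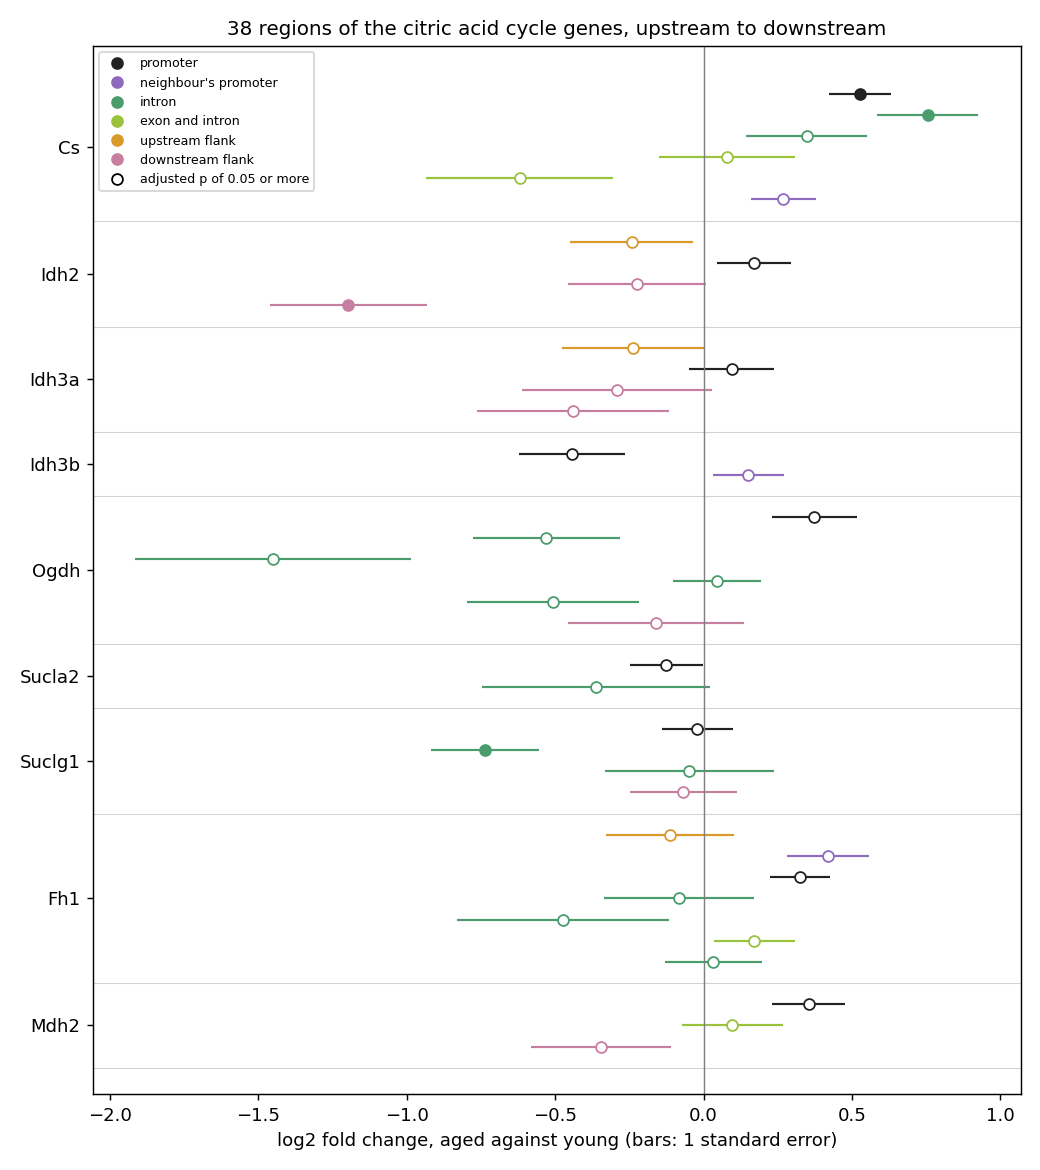
Log2 fold changes of aged against young (horizontal axis, bars 1 standard error) for the 38 regions of the 9 genes, ordered within each gene from upstream to downstream. Filled points have an adjusted p under 0.05 and open points do not, colours give the class of region, and the 4 filled points are the Cs promoter and intron on the right and the Suclg1 intron and Idh2 downstream flank on the left.

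**Figure D4:**
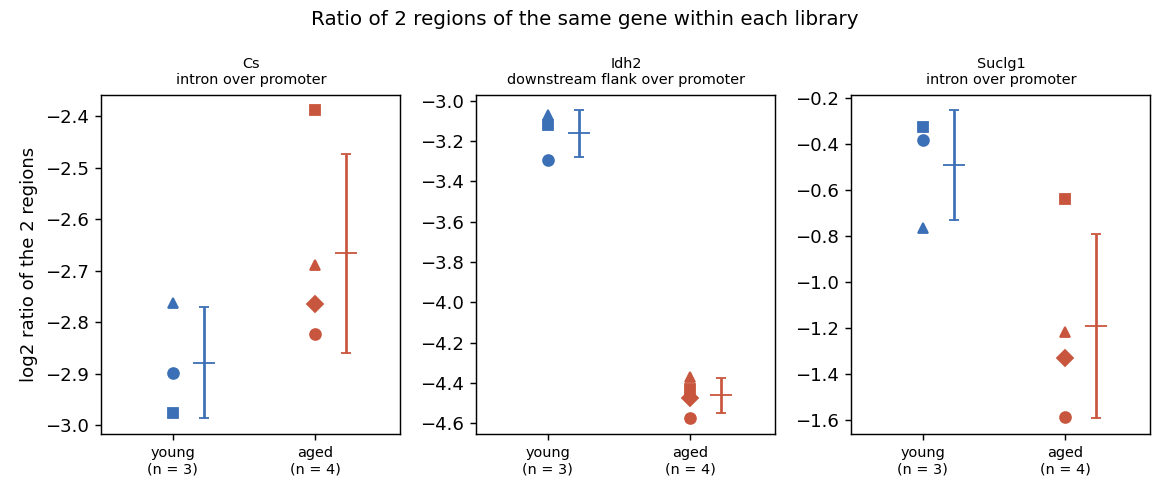
Log2 ratios of 2 regions of the same gene in each library, for Cs, Idh2 and Suclg1 from left to right, with young (blue, n = 3) and aged (red, n = 4) samples as points and the mean and SD beside them. The aged points all lie below the young ones for the Idh2 flank, and 3 of 4 do for the Suclg1 intron, and the vertical scale differs between panels.

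No promoter region of the other cycle enzymes passed the test. Of 8 further cycle genes (Idh3g, Dlst, Dld, Suclg2, Sdha, Sdhb, Sdhc and Sdhd), 0 were called in either direction by edgeR, DESeq2 or limma voom, and 1 (Idh3g, higher in aged) had an unadjusted edgeR p under 0.05, where 4.48% of all promoter regions were called more accessible and 3541 of 15422 were higher at that p. Their log2 fold changes had a median of 0.14 and ran from -0.11 at Sdhd, a membrane anchor of succinate dehydrogenase (edgeR adjusted p = 0.570), to 0.29 at Idh3g, the gamma subunit that joins Idh3a and Idh3b (0.183). Sdhd was lower and Suclg2, the GTP-forming beta subunit of succinyl-CoA ligase (log2 fold change 0.18, edgeR adjusted p = 0.358), higher in all 4 aged samples than in every young one. Of all promoter regions 8.88% were lower and 20.4% higher in this way. The difference between these genes and the 9 was not tested.

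The called companions were among genes for pyruvate entry and for cytosolic counterparts, exits and shuttles, and the difference of these groups from the cycle companions was not tested. The cycle companions were also weaker promoters, with a median of 5.18 log2 CPM against 6.18 and 6.67, and with strength offsets no companion was called. Of all 35 companions 23 lay in the strongest class of promoter regions, where 11.2% of regions were called more accessible, against 4.48% of all promoter regions. Of 14 genes of pyruvate entry, 5 rose and 0 fell, with a median log2 fold change of 0.33. They were Pdk4 (0.67 ± 0.13 SE, edgeR adjusted p = 0.0131) and Pdk1 (0.53 ± 0.11, 0.0192), kinases that switch pyruvate dehydrogenase off, Pdha1 (0.60 ± 0.12, 0.0143) and Pdhx (0.40 ± 0.10, 0.0394), which belong to pyruvate dehydrogenase itself, and Mpc2 (0.46 ± 0.13, 0.0482), a subunit of the mitochondrial pyruvate carrier. The genes that rose thus include both the enzyme and its inhibitors. The lowest of the group was Pdk3 with -0.32 (edgeR adjusted p = 0.420). The Mpc2 region is shared with the start of Dcaf6 and the Pdhx region with that of Apip.

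Of 13 genes for cytosolic counterparts, exits and shuttles, 3 rose and 0 fell, against the same shares, with a median log2 fold change of 0.34. Acly, which cleaves exported citrate to acetyl-CoA, held 99.4, 101.6 and 84.3 CPM in young and 138.5, 145.5, 143.6 and 143.3 CPM in aged replicates (log2 fold change 0.58 ± 0.11 SE, edgeR adjusted p = 0.0130). Idh1, the cytosolic isocitrate dehydrogenase, had 0.47 ± 0.10 (0.0220) and Mdh1, the cytosolic malate dehydrogenase, in a region shared with Wdpcp, 0.45 ± 0.11 (0.0290). The lowest was Slc25a11, the oxoglutarate carrier, with 0.061 (edgeR adjusted p = 0.842). In the same fit the mitochondrial partners Idh2 (0.17) and Mdh2 (0.35) did not pass, and the difference between the partners was not tested.

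Over all 35 companions 8 were called more accessible and 0 less with edgeR, 11 and 0 with DESeq2 and 10 and 0 with limma voom. In the strongest class of promoter regions these tools called 509, 1210 and 952 of 4527 more accessible. At an unadjusted edgeR p under 0.05 there were 16 higher and 0 lower, where 3541 of all 15422 promoter regions and 54.8% of the strongest class were higher. Their median log2 fold change was 0.26, close to the 0.28 of all promoter regions in the strongest class. With offsets for region strength 0 of the 35 were called and the median was 0.017, and without young replicate 1 again 0 were called, with a median of 0.27. In these settings 247 and 55 of all 55680 regions were called more accessible, against 1360 in the reported one. The share of more accessible calls among all called regions was 42.5% with TMM scaling, 15.6% with total counts, 63.0% with offsets for G and C content and 58.8% with DESeq2, whose size factors and test both differ.

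**Figure D5:**
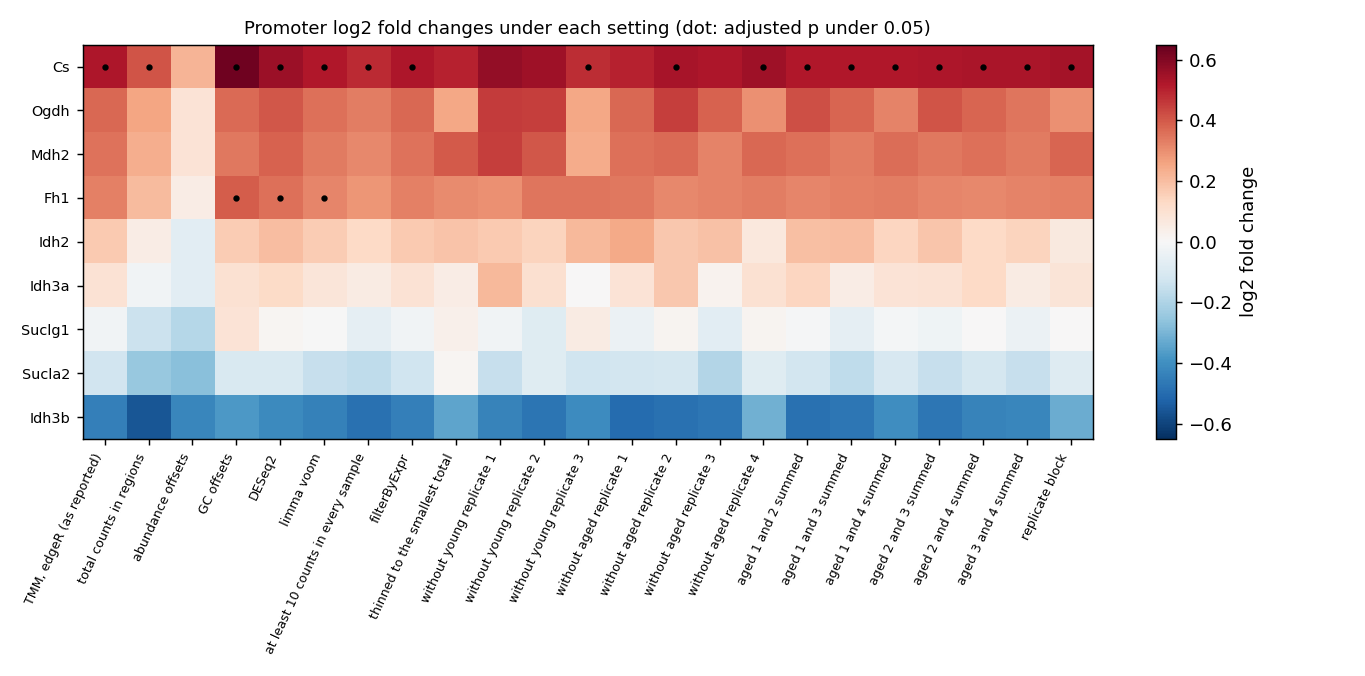
Log2 fold changes of the 9 promoter regions (vertical axis) under the reported setting and each alternative (horizontal axis), coloured from blue for lower to red for higher in aged samples, with a dot where the adjusted p was under 0.05. Cs stays above 0 and Idh3b below 0 in every column, while dots appear at Cs and Fh1 in some columns.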

How the data were processed

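The authors deposited raw read counts per consensus region for 7 ATAC-seq libraries, with no normalization. According to their methods and processing notes, reads were trimmed with cutadapt 1.13, aligned to GRCm38 with Bowtie2 2.4.1 and freed of PCR duplicates and mitochondrial reads, peaks were called per library with MACS2 2.2.7, and featureCounts counted reads in regions that had a peak in 2 or more libraries. Regions too weak to give such peaks are therefore missing. All 7 columns were matched to samples and 0 were unused. The nuclei came from whole liver tissue.

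All 55680 regions were fitted together with edgeR 4.0.16 (R 4.3.3; TMM, quasi-likelihood test on age alone, no filter), with Benjamini-Hochberg adjustment at 0.05. The fit was also run on simulated counts with independent samples and the same dispersion for all regions. The outcome of that run is not given, so it is no check of the differences reported here. Values per sample were CPM with TMM factors, and a prior count of 2 was added before log2 CPM and ratios. Two-sided exact permutation tests of single values ran over 35 splits, with the smaller one-sided p doubled. Alternatives were DESeq2 1.42.0, limma 3.58.1 (voom), total counts, loess offsets (span 0.3) on strength or G and C content, low-count filters, thinning to equal totals, leaving out each sample, summing each pair of aged samples, a replicate block and other promoter definitions. Deviations of same-numbered samples correlated at -0.119, 0.0565 and 0.0298, so the replicate numbers were not taken as pairs. Same-age libraries differed by more than sampling noise (chi-square per degree of freedom 2.38 to 6.06). The 38 regions described had 0 near-identical copies elsewhere (minimap2 2.31; 80% cover, 95% identity).

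All 9 genes are named, with their called regions and otherwise the highest and lowest region of each gene outside its promoter, and among companions those called and the extremes of each of 3 groups. Of the regions found by the rule 1, and of the companion list 1 gene, are not reported here. The genes, companion lists and markers were chosen with earlier results of these data known. Reads without molecular identifiers are not independent molecules. Figures were drawn with matplotlib 3.10.9 in Python 3.11.15.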

Additional observations from a re-analysis of the deposited data

Results flagged for a closer look

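At the Idh3b promoter region aged replicate 4 stood apart from the other 3 aged samples, at 3.17 log2 CPM against 3.65 to 3.69. The gap made up 0.92 of the range of the group, above Dixon's critical value for 4 samples. Among 16 sets of values looked at in this way, chance gives about 1 in 20. Without this sample the log2 fold change of Idh3b was -0.31 (edgeR adjusted p = 0.233).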

How the results depend on the processing

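The log2 fold changes of Cs (0.22 to 0.63), Fh1 (0.047 to 0.40), Mdh2 (0.091 to 0.45), Ogdh (0.087 to 0.45) and Idh3b (-0.56 to -0.31) kept their sign under the alternatives run. That of Idh2 turned to -0.071 with offsets for region strength and that of Idh3a to -0.069 there and to -0.023 with total counts. Sucla2 turned to 0.011 after thinning. Suclg1, near 0, turned to 0.087 with offsets for G and C content, 0.012 with DESeq2, 0.031 after thinning, 0.0030 with aged 2 and 4 summed, and ranged from -0.080 to 0.053 when 1 sample was left out (0.053, 0.016 and 0.016 without young replicate 3, aged replicate 2 and aged replicate 4). Total counts moved the median of all regions from -0.035 to -0.15.

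The 1 promoter region called more accessible became 2 with offsets for G and C content, DESeq2 and limma voom, and 0 with strength offsets, after thinning and at a threshold of 0.01. It was 0 to 1 when 1 sample was left out. Outside promoters the 1 gain became 0 after thinning, with aged 1 and 3 summed and at 0.01, and was 0 to 1 with 1 sample left out. The 2 losses became 0 in these settings and with strength offsets, and were 0 to 3 with 1 sample left out. The 8 companions became 0 with strength offsets and at 0.01, 4 with at least 10 counts, 3 after thinning and with aged 1 and 3 summed, 5 with aged 3 and 4 summed, and 0 to 8 with 1 sample left out. Over all regions the 1360 gains and 1838 losses became 247 and 416 with strength offsets and 185 and 225 after thinning. They were 525 and 802 with at least 10 counts and 3483 and 2044 with offsets for G and C content. With aged samples summed they were 269 and 693 (1 and 3) and 727 and 1427 (3 and 4). With 1 sample left out they ran from 55 and 133 to 1630 and 2600. The cause was not tested, except that summing, thinning and leaving out samples lower the number of samples or reads.

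With a replicate block, although the numbers did not pair the samples, the promoter calls stayed at 1, the losses outside promoters were 4, the companions 4 and Suclg1 0.0027. Over all regions the block gave 1485 gains and 2593 losses. Aged replicate 4 is alone in its block. With the one-sided p doubled, the exact permutation tests of 3 against 4 samples cannot go below 0.0571, and the weakest regions, with under 10 reads in some samples, have wide errors.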

Other observations

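The flanks of the 9 genes hold promoter regions of 3 neighbours, none of which passed the test. The start of Kmo, the kynurenine monooxygenase gene that overlaps the start of Fh1, held 19.0, 24.0 and 25.2 CPM in young and 29.4, 29.0, 30.4 and 32.3 CPM in aged replicates. Every aged sample lay above the young ones, and the log2 fold change was 0.42 ± 0.14 (SE, edgeR adjusted p = 0.0799). The start of Coq10a, a coenzyme Q binding protein gene next to Cs, had a log2 fold change of 0.27 (edgeR adjusted p = 0.151), and the start of Nop56, a nucleolar protein gene next to Idh3b, 0.15 (0.457). Idh3b and Nop56 are neighbours with values on different sides of 0, -0.44 and 0.15, and their difference was not tested.

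The median log2 CPM of the 9 promoters, 1 for each gene, exceeded the median of all promoter regions by 0.99, 0.98 and 0.88 in young and by 0.84 to 1.37 in aged replicates. The ages overlapped, with aged replicate 1 the lowest and aged replicate 4 the highest sample.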
